A study of Rattus norvegicus with 9 samples.

Results

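The tendon and cartilage lineage genes comprised 10 of the 19085 genes in the table, namely Tnmd, Scx, Mkx, Thbs4, Comp, Cilp, Sox9, Sox5, Sox6 and Acan. They were picked by symbol, and the choice was made with the differences between these same libraries already known. Their values are therefore given as a description, and a statement that one of them was called repeats the fit over all genes and is not independent evidence. All 10 were found once in the table and had enough counts for that fit. Messenger RNA was measured in primary osteoblasts of newborn male Sprague-Dawley rats, in 3 groups of 3 libraries each. Every group spent 7 days in osteogenic induction medium with serum, β-glycerophosphate, ascorbic acid and dexamethasone. The control group had this medium alone, the thrombin group had thrombin at 20 U/mL added, and the PD03 group had the same thrombin dose plus PD0325901, here PD03, which blocks the kinase MEK. The study's methods and design text give PD03 as 0.1 μM, and a protocol in the labels gives 0.1 mM. No group had PD03 without thrombin, so the PD03 libraries show the inhibitor only on top of thrombin. The sample labels name the knee as the tissue, and the growth protocol names the calvaria. The cells were a first-passage collagenase digest, which can hold several cell types, and no source used here ties the libraries to separate animals, so the spread between libraries may be partly technical.

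Tendon, cartilage and bone cells arise from related mesenchymal progenitors. Scx (scleraxis) and Mkx (mohawk) are transcription factors of the tendon lineage, and Tnmd (tenomodulin) is a membrane glycoprotein of maturing tendon cells whose gene depends on Scx. Sox9 is the transcription factor that sets the cartilage fate, and Sox5 and Sox6 act with it on cartilage matrix genes such as Acan, which encodes the proteoglycan aggrecan. Comp and Thbs4 encode pentameric thrombospondins of tendon and cartilage matrix, and Cilp encodes cartilage intermediate layer protein, which is also found in tendon and ligament. Erk1/2, the kinases that MEK activates, are known to act on both lineages during limb development.

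Total counts were 15447832 to 19841468 per library and TMM scaling factors 0.9488 to 1.043. Levels of the 10 genes are given for each library as CPM, the count scaled to a common library size with TMM, and differences as log2 fold changes with their standard error (SE) from edgeR's quasi-likelihood fit of all 9 libraries. A gene was called when its Benjamini-Hochberg adjusted p over 13256 tested genes fell below 0.05 with a log2 fold change beyond 0.58 in either direction. Of 12 genes known to lie downstream of MEK, 9 were called lower and none higher when PD03 was added to thrombin. Over all tested genes, 6.31% were called lower there. This list was written with earlier results of these data known. With thrombin against control, 2 of the 12 were called higher and none lower, with a median log2 fold change of 0.07. Over all tested genes, 2.62% were called higher and 5.44% lower in that comparison. Dusp6, a phosphatase that limits Erk1/2, had a log2 fold change of -2.40 with PD03 against thrombin (SE 0.12, adjusted p = 4.1e-20). With thrombin against control it was -0.40 and not called.

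The label of osteoblast was checked against 19 bone genes. Col1a1, Col1a2 and Sparc, which other matrix-forming cells also use, and the transcription factors Runx2 and Sp7 were measured in every library. The more defining genes were scarce. Bglap (osteocalcin) had 1 to 5 counts per library, Ibsp (bone sialoprotein) 0 to 1, Dmp1 0 to 4 and Sost 0 to 2, and in all 6 of the 19 genes had at most 10 counts in every library. Alpl, the alkaline phosphatase of mineralising cells, had 19 to 41 counts in the control libraries, 6 in each thrombin library and 46 to 62 in the PD03 libraries. Defining cartilage and tendon genes were mixed. Col2a1, the main collagen of cartilage, had 783 to 1448 counts per library and Tnmd 387 to 3335, whereas Cnmd (chondromodulin) had 0 to 2, Col10a1 1 to 10 and Kera 0 to 2. At least 10 counts in every library were found for 13 of 19 cartilage matrix genes and 17 of 19 tendon matrix genes. Matn1 was not analysed here.

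Among other cell types the collagenase digest could hold, the defining blood cell gene Ptprc had 0 to 6 counts per library, the endothelial gene Pecam1 1 to 8, and the muscle gene Myog 0 to 3. Other genes of these lists were present and moved. Of 9 myeloid genes, 5 had at most 10 counts in every library, and the list summed to 11.6 to 13.7 FPKM in control libraries, 16.1 to 18.0 with thrombin and 8.85 to 9.59 with PD03, most of it Cd14, a receptor that stromal cells can also make. Cd14 was called lower with PD03 against thrombin (log2 fold change -0.91, SE 0.09, adjusted p = 4.6e-12), and Csf1r, at 5 to 26 counts, higher with PD03 against control (1.47, SE 0.42, adjusted p = 0.0045). The 5 endothelial genes found summed to 1.60 to 1.75 FPKM in control, 1.45 to 1.92 with thrombin and 2.26 to 2.6 with PD03, and 2 of the 3 tested, Kdr (1.43, adjusted p = 0.0014) and Tek (0.62, adjusted p = 1.9e-04), were called higher with PD03 against thrombin. The 6 skeletal muscle genes found summed to 4.09 to 4.76, 3.64 to 4.25 and 4.19 to 4.60 FPKM, with Des at 91 to 158 counts and not called. Of the 4 tested, Acta1, at 2 to 25 counts, was called higher with PD03 against thrombin (1.17, adjusted p = 0.019) and against control (2.04, adjusted p = 5.5e-04), and Tnnt3 lower with thrombin (-0.71, adjusted p = 0.0023). Of the smooth muscle and pericyte genes, 6 of 7 had a mean above 1 FPKM (the deposited level per gene length and library total) in each group. The pericyte gene Rgs5 had 0 to 9 counts per library, whereas Cspg4 and Mcam of the same list had 600 to 1525 and 47 to 90. Both were called higher with thrombin (log2 fold changes 0.90, adjusted p = 1.2e-16, and 0.65, adjusted p = 0.0092). The summed level of the 7 genes of this list was 992 to 1110 FPKM in control libraries, 963 to 1040 in thrombin libraries and 1900 to 1970 in PD03 libraries. Of the 6 tested, 4 were called higher and none lower with PD03 than with thrombin. Against control, 2 were called higher with thrombin and 5 with PD03, and none lower. Acta2, the smooth muscle actin that activated fibroblasts also make, had a log2 fold change of 1.47 with PD03 against thrombin (SE 0.04, adjusted p = 3.6e-30). The summed level of 8 adipocyte genes was 60.4 to 63.5 FPKM with control, 29.4 to 30.9 with thrombin and 44.1 to 46.2 with PD03, most of it from Lpl. All 4 tested were called lower with thrombin and 3 higher with PD03 against thrombin. Those 3 were Lep, at 0 to 92 counts (5.75, adjusted p = 2.6e-13), Pparg, at 2 to 26 counts (1.77, adjusted p = 0.0014), and Lpl (0.67, adjusted p = 7.0e-17). Adipoq had 0 to 1 counts per library. Over all tested genes, 2.62% were called higher and 5.44% lower with thrombin. With PD03 against thrombin the shares were 9.61% and 6.31%, and with PD03 against control 4.9% and 4.07%. The 5 Schwann cell genes summed to 1.57 to 3.29 FPKM and the 2 epithelial genes found to at most 0.0889 FPKM. The part of these cell types in the results was not tested, and in bulk RNA fewer cells of a type and less RNA per cell cannot be told apart.

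Compared per gene length, Tnmd was the highest of the 10 genes in every group, with 35.3 ± 1.27 FPKM in the control group, 18.8 ± 1.99 in the thrombin group and 124 ± 1.92 in the PD03 group. In the PD03 group its level was at percentile 96.8 of all tested genes. In control libraries Cilp (5.07 FPKM) and Scx (4.37) followed and overlapped, then Mkx (2.06) and Sox9 (1.96), which overlapped, then Thbs4 (1.21) and Comp (1.10), which overlapped, and Sox6 (0.464) and Sox5 (0.415), which overlapped. Acan was the lowest in every group, at 0.0875, 0.210 and 0.163 FPKM. In thrombin libraries the order changed below Tnmd, with Scx next (11.5 FPKM), then Sox9 (3.60), and Cilp down at 0.750, overlapping Comp above it and Sox6 below it. In PD03 libraries Cilp followed Tnmd again (15.5 FPKM), ahead of Scx (6.50) and Sox9 (3.82), while Comp, Mkx and Thbs4 lay between 2.88 and 3.22 FPKM and Mkx overlapped both of its neighbours. For scale, Col2a1 stood at 18.3, 10.6 and 11.3 FPKM in the control, thrombin and PD03 groups, and Alpl at 0.708, 0.145 and 1.22 FPKM.

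**Figure D1:**
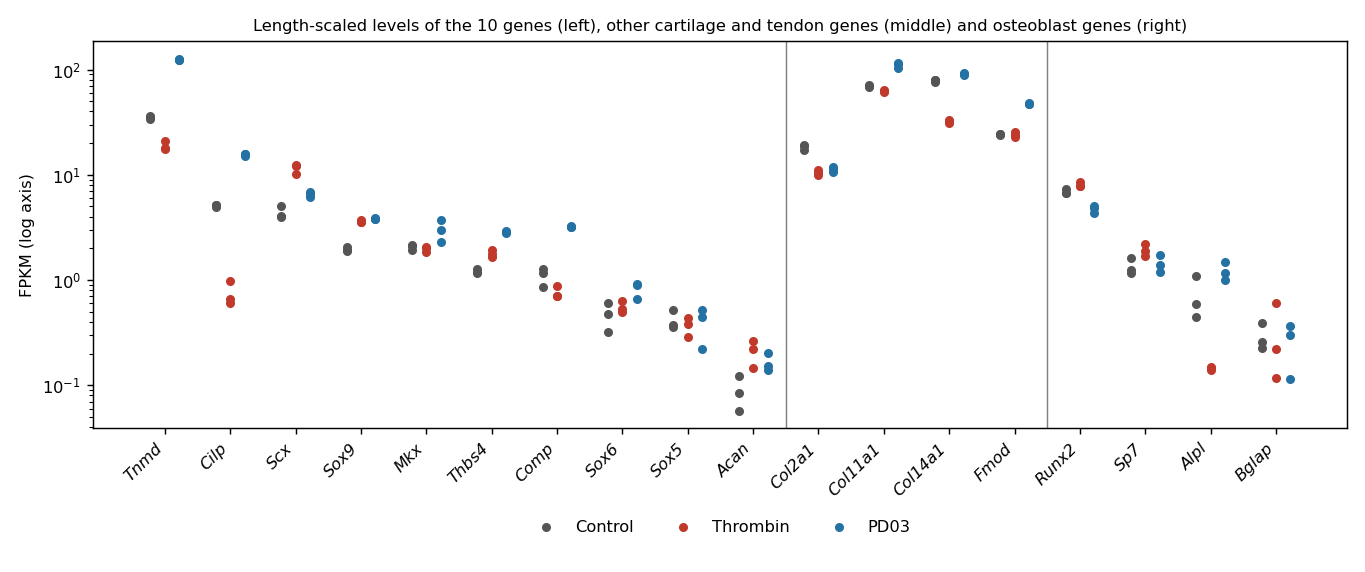
Deposited FPKM of each library (points, log axis) for the 10 genes, for 4 other cartilage and tendon genes and for 4 osteoblast genes, coloured by group. Tnmd reached 124 FPKM in the PD03 group, while Acan stayed below 0.27 FPKM in all 9 libraries.

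Comparing thrombin with control, 3 of the 10 genes were called higher (Scx, Sox9 and Acan) and 2 lower (Tnmd and Cilp), where 8.06% of all tested genes were called. Comparing PD03 with thrombin alone, 6 were called higher (Tnmd, Cilp, Comp, Thbs4, Mkx and Sox6) and 1 lower (Scx), where 15.9% of all tested genes were called. Comparing PD03 with control, 9 were called higher and none lower, with Sox5 the exception, where 8.97% of all tested genes were called. Since the genes were chosen with these comparisons known, nothing is read from those shares. The libraries of the compared groups did not overlap for 6, 8 and 9 of the 10 genes, beside 40.3%, 55.5% and 47.8% of all tested genes. Their median log2 fold changes were 0.12, 0.69 and 1.05 in the 3 comparisons, beside -0.01, 0.01 and -0.00 over all tested genes. The 3 comparisons share libraries and are not independent of each other.

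**Figure D2:**
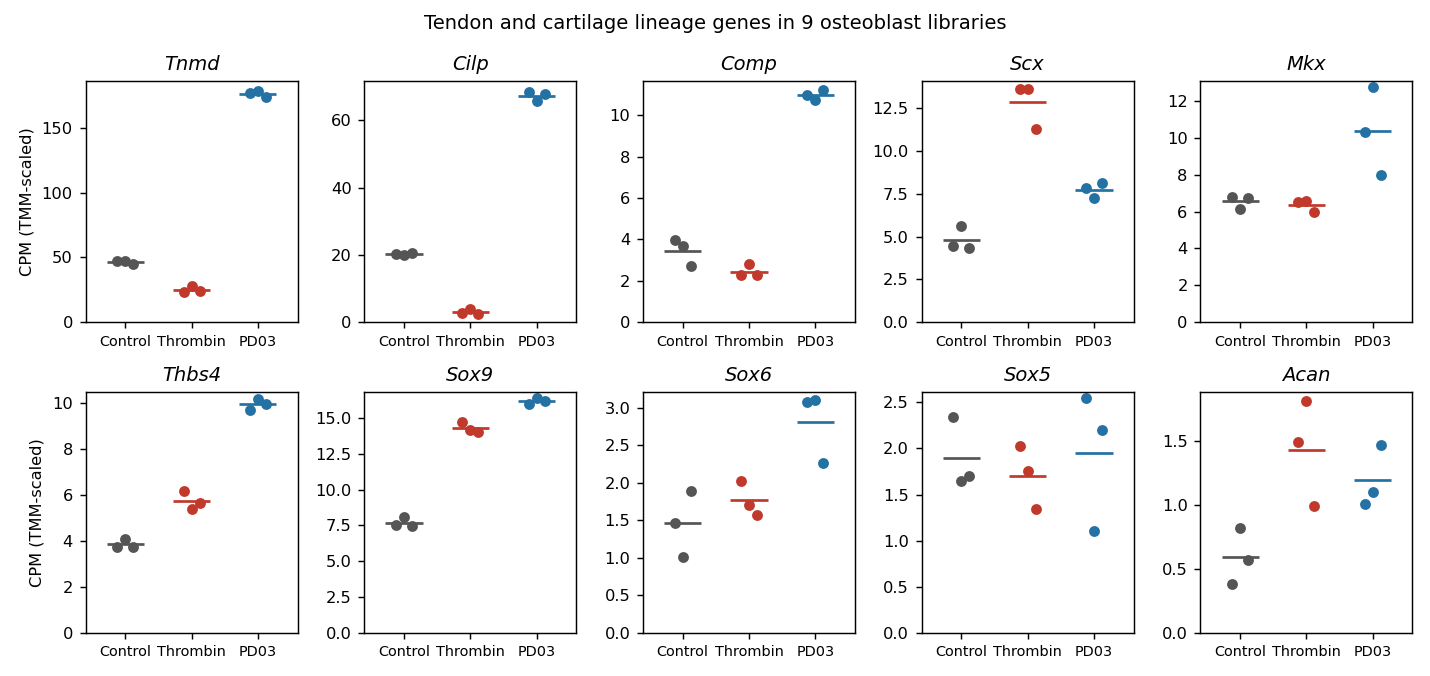
TMM-scaled CPM of each of the 10 genes in each library (points) with group means (bars), 3 libraries per group and each panel on its own linear axis from 0. Tnmd, Cilp and Comp have the highest mean with PD03 and the lowest with thrombin, as has Mkx with control and thrombin nearly level, Scx is highest with thrombin, and Sox9 is raised in both treated groups.

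Tnmd (ENSRNOG00000060970) measured 47.0, 46.9 and 44.6 CPM in the control libraries, 23.0, 27.9 and 23.7 in the thrombin libraries, and 177, 178 and 174 in the PD03 libraries. The 3 groups did not overlap, and the PD03 libraries lay far above both others. The log2 fold change was -0.89 with thrombin (SE 0.06), 2.82 with PD03 against thrombin (SE 0.06) and 1.93 with PD03 against control (SE 0.05), a 3.82-fold higher level than in untreated cultures. At 387 to 3335 counts per library, it was the most deeply counted of the 10 genes.

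Cilp (ENSRNOG00000029911) showed the widest range of the 10 genes. It measured 20.4, 19.9 and 20.6 CPM in the control libraries, 2.68, 4.00 and 2.45 in the thrombin libraries and 68.4, 65.6 and 67.9 in the PD03 libraries. Again no library of one group reached another group. Cilp was 6.62-fold lower with thrombin than in control (log2 fold change -2.73, SE 0.12) and 21.9-fold higher with PD03 than with thrombin (log2 fold change 4.46, SE 0.10), so that PD03 cultures stood 3.31-fold above control. Its relative Cilp2 was nearly level, at 18 to 36 counts per library, with log2 fold changes of 0.04, 0.04 and 0.08 in the 3 comparisons.

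Comp (ENSRNOG00000048472) measured 3.97, 3.66 and 2.72 CPM in the control libraries, 2.26, 2.80 and 2.27 in the thrombin libraries and 10.97, 10.75 and 11.2 in the PD03 libraries. Control and thrombin libraries overlapped, and their log2 fold change of -0.50 (SE 0.20) was not called. PD03 libraries were 4.47-fold above thrombin (log2 fold change 2.16, SE 0.17) and 3.16-fold above control (log2 fold change 1.66, SE 0.16). Without Control replicate 3 or without Thrombin replicate 2, the thrombin difference was called, at log2 fold changes of -0.64 and -0.61.

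Thbs4 (ENSRNOG00000012471) took another course, at 3.75, 4.10 and 3.73 CPM in control, 6.19, 5.37 and 5.65 with thrombin and 9.69, 10.2 and 9.98 with PD03. The 3 groups did not overlap and thrombin lay between the others. The log2 fold change with thrombin was 0.57 (SE 0.16), just under the fold threshold, and it passed the threshold at 0.62 without Control replicate 2 or without Thrombin replicate 2, and at 0.58 without Thrombin replicate 3. With PD03 it was 0.79 against thrombin (SE 0.14) and 1.36 against control (SE 0.15). The other thrombospondin genes were far more abundant per length. Thbs1 stood at 1251, 1716 and 1323 FPKM in control, thrombin and PD03, with log2 fold changes of 0.47, -0.28 and 0.20, none of them called. Thbs2, a matrix thrombospondin that binds metalloproteinases, stood at 839, 735 and 1271 FPKM and was called higher with PD03 against thrombin (log2 fold change 0.89, SE 0.03, adjusted p = 4.3e-28) and against control (0.72, adjusted p = 3.3e-24). Thbs3 was called in no comparison, at log2 fold changes of -0.07, 0.52 and 0.45.

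The sequences before the annotated start sites of Tnmd, Cilp and Comp are shown because these 3 genes had the largest log2 fold changes of the 10 in PD03 against thrombin. Each is the 250 bases upstream of the start, from RefSeq on assembly GRCr8, 5′ to 3′ on the gene's strand, with capitals marking matches to the E-box CANNTG, the core that basic helix-loop-helix factors such as Scx bind. The Tnmd window is chrX:101350182-101350431 on the plus strand, the Cilp window is chr8:74672198-74672447 on the plus strand, and the Comp window is chr16:19089549-19089798 on the minus strand.
Tnmd: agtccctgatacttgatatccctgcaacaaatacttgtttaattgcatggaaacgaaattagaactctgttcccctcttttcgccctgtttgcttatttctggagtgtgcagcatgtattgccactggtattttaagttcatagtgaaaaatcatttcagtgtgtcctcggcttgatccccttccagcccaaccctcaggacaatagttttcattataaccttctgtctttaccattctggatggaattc
Cilp: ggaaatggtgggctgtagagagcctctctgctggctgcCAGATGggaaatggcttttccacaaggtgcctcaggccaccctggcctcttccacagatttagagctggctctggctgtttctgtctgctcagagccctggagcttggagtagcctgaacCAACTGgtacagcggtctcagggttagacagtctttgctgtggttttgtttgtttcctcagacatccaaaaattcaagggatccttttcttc
Comp: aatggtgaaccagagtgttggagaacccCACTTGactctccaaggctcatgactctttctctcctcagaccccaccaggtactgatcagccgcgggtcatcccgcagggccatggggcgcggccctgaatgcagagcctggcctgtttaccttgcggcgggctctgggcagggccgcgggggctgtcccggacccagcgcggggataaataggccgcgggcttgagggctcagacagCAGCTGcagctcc
The window of Tnmd held 0 E-boxes, and those of Cilp and Comp held 2 each, where 65.5% of 33469 promoter windows of this length held at least 1. Of the other genes with an entry, Thbs4 had 1 E-box, Sox6 had 2, and Acan and both windows of Mkx had 0. The core bound by Sox factors, searched as ACAANG on both strands, occurred 1 time in Cilp, clear of the E-boxes, and not in the other two, against 36.9% of all windows, and 3 times in Sox6 but in none of the remaining windows. TGANTCA, the AP-1 site, and TATAAA were in none of the windows of the 7 genes with an entry, which 6.34% and 12.9% of all windows held. GC content was 40.8% for Tnmd, 52.0% for Cilp and 64.8% for Comp. These matches describe letters in a short window and show no binding. Scx, Sox9 and Sox5 had no entry.

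Scx (ENSRNOG00000021812) measured 4.46, 5.62 and 4.36 CPM in the control libraries, 13.6, 13.6 and 11.3 in the thrombin libraries, and 7.84, 7.25 and 8.14 in the PD03 libraries. The groups did not overlap, thrombin was the highest and PD03 lay between. The log2 fold change was 1.42 with thrombin (SE 0.14, 2.67-fold), -0.73 with PD03 against thrombin (SE 0.13) and 0.69 with PD03 against control (SE 0.15). Thus Scx and Tnmd stood in opposite order in the thrombin and PD03 groups. With libraries scaled by their totals, Scx in PD03 against control came to 0.57, just under the fold threshold. Tcf15, which encodes the related factor paraxis, had 0 to 1 counts per library.

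Mkx (ENSRNOG00000018938) measured 6.80, 6.12 and 6.76 CPM in control, 6.54, 6.58 and 6.00 with thrombin, and 10.3, 12.8 and 8.02 with PD03. Control and thrombin libraries overlapped (log2 fold change -0.04, SE 0.15), and every PD03 library was above both. The log2 fold changes were 0.70 with PD03 against thrombin (SE 0.14) and 0.66 against control (SE 0.14). Without PD03 replicate 2 they were 0.52 and 0.48 and neither was called, and with libraries scaled by their totals the second was 0.54 and not called. Of the related homeobox genes, Irx1, Irx3 and Irx5 were called in no comparison.

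Sox9 (ENSRNOG00000002607) measured 7.51, 8.08 and 7.45 CPM in the control libraries, 14.7, 14.2 and 14.0 in the thrombin libraries and 16.00, 16.39 and 16.22 in the PD03 libraries. Both treated groups lay well above control, and every PD03 library was slightly above every thrombin library. The log2 fold change was 0.90 with thrombin (SE 0.11) and 1.08 with PD03 against control (SE 0.11), and the difference between PD03 and thrombin, 0.18 (SE 0.10), was not called. Of the related Sox8 and Sox10, Sox8 had 5 to 20 counts and Sox10 0 to 13 per library.

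Sox6 (ENSRNOG00000020514) was measured with 16 to 58 counts per library, at 1.47, 1.01 and 1.90 CPM in control, 2.02, 1.70 and 1.57 with thrombin and 3.07, 3.11 and 2.27 with PD03. PD03 libraries were above all others, with log2 fold changes of 0.68 against thrombin (SE 0.26) and 0.95 against control (SE 0.27). The first of these was no longer called without Thrombin replicate 2 (0.64), Thrombin replicate 3 (0.60), PD03 replicate 1 (0.60) or PD03 replicate 2 (0.59), with DESeq2 (0.67), or with libraries scaled by their totals (0.58). Sox5 (ENSRNOG00000027869) had 17 to 48 counts per library, at 2.34, 1.64 and 1.71 CPM in control, 2.02, 1.75 and 1.34 with thrombin and 2.543, 1.101 and 2.204 with PD03. All 3 groups of Sox5 overlapped, with log2 fold changes of -0.16 (SE 0.30), 0.21 (SE 0.30) and 0.05 (SE 0.29), and a difference was not detectable at this depth. The other gene of their subfamily, Sox13, was called in no comparison.

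Acan (ENSRNOG00000028992) was the least expressed, with 7 to 33 counts per library. It measured 0.381, 0.821 and 0.569 CPM in control, 1.49, 1.81 and 0.991 with thrombin and 1.01, 1.10 and 1.47 with PD03. All treated libraries were above all control libraries, while thrombin and PD03 overlapped. The log2 fold change was 1.29 with thrombin (SE 0.39), 1.02 with PD03 against control (SE 0.40) and -0.27 with PD03 against thrombin (SE 0.34). The thrombin call was lost without Control replicate 1 (1.04) or Thrombin replicate 2 (1.08). The PD03 call against control was lost without Control replicate 1 (0.77), Control replicate 3 (1.00), PD03 replicate 2 (1.06) or PD03 replicate 3 (0.85), with DESeq2 (1.03), and with library totals (0.91). The related proteoglycan Vcan (versican) was far higher, at 159, 198 and 165 FPKM, and was not called in any comparison. Among genes for the link proteins that tie such proteoglycans to hyaluronan, Hapln4 was called higher with thrombin (log2 fold change 0.96, adjusted p = 0.0017) and with PD03 against control (1.04, adjusted p = 4.4e-04), and Hapln3 with thrombin (0.75, adjusted p = 2.6e-04). Hapln1, the link protein of cartilage, was called only with PD03 against control (0.59, SE 0.23, adjusted p = 0.038), and Hapln2 in none. Bcan had 0 to 6 counts per library, and Ncan was not analysed here.

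**Figure D3:**
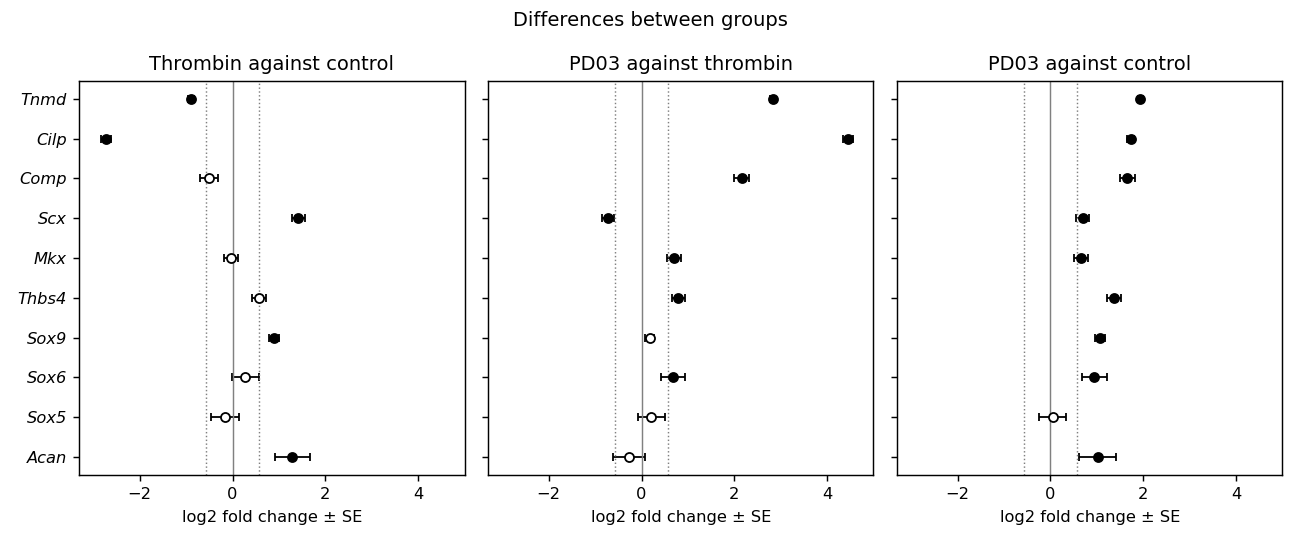
Log2 fold change (point) and SE (bar) of the 10 genes in the 3 comparisons, with filled points for called genes, open points for genes not called and dotted lines at the fold threshold of 0.58. Cilp spans from -2.73 with thrombin to 4.46 with PD03 against thrombin, and Sox5 lies near 0 throughout.

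Other genes of both lineages were taken from lists written for this purpose, with 45 cartilage genes (30 tested) and 39 tendon genes (34 tested). These lists too were written with earlier results of these data known. Their counts are a description and no independent check on the 10 genes. With thrombin, 4 of the 30 cartilage genes were called higher and 9 lower, with a median log2 fold change of -0.16. With PD03 against thrombin, 10 were called higher and 5 lower (median 0.42), and with PD03 against control 10 higher and 2 lower (median 0.34). Of the 34 tendon genes, 1 was called higher and 7 lower with thrombin (median -0.22), 13 higher and 5 lower with PD03 against thrombin (median 0.40), and 9 higher and 5 lower with PD03 against control (median 0.29). With libraries scaled by their totals the median of all tested genes moved to -0.12 in PD03 against control, and calls there went from 649 higher and 540 lower to 470 and 908, and in PD03 against thrombin from 1274 and 836 to 1022 and 1176. In PD03 against control, this scaling left 6 cartilage genes called higher and 3 lower, 7 tendon genes higher and 5 lower, and 6 of the 10 lineage genes higher. Without Control replicate 2, 1 cartilage gene was called lower there. Higher calls made up 2.62%, 9.61% and 4.9% of all tested genes in the 3 comparisons and lower calls 5.44%, 6.31% and 4.07%. These are counts of genes, which are not independent of each other, and no test of the lists was made.

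Of 13 tested cartilage matrix genes, 1 rose and 5 fell with thrombin, where Sox9 was higher. Col2a1 fell from 18.3 to 10.6 FPKM (log2 fold change -0.78, SE 0.06, adjusted p = 1.3e-14), and Col11a2 (-1.60, SE 0.28, adjusted p = 1.4e-05), Col9a2 (-0.78, adjusted p = 1.6e-04) and Prg4, which encodes the joint lubricant lubricin (-1.19, adjusted p = 4.2e-05), fell too. The 1 that rose was Matn3, a matrilin (1.27, SE 0.31, adjusted p = 0.0013). With PD03 against thrombin, Prg4 (2.00, SE 0.21, adjusted p = 5.8e-11), Col11a2 (1.77, adjusted p = 6.7e-07), Epyc (1.11, adjusted p = 5.7e-08), Col9a1 (0.98, adjusted p = 2.3e-06) and Col11a1 (0.92, adjusted p = 2.0e-24) rose, and Col27a1 (-0.90, adjusted p = 7.5e-13) and Xylt1, which starts the sugar chains of proteoglycans (-0.60, adjusted p = 2.7e-08), fell. With PD03 against control, 6 of the 13 were called higher and 1 lower. The largest rises were Col9a1 (0.87, adjusted p = 2.5e-05), Matn3 (0.82, adjusted p = 0.039) and Prg4 (0.81, adjusted p = 3.5e-04). The 1 called lower was Col2a1, at -0.582 (SE 0.06, adjusted p = 3.2e-11), just past the fold threshold. Of 5 tested genes of hypertrophic cartilage, 1 was called higher and 2 lower with thrombin, and 3 higher and 1 lower with PD03 against thrombin. Panx3 had 4 to 14 counts per control library, 0 to 4 with thrombin and 39 to 42 with PD03 (PD03 against control 2.27, adjusted p = 7.1e-06). Mef2c (0.86, adjusted p = 1.2e-07) and Pth1r (0.77, adjusted p = 1.5e-10) rose with PD03 against thrombin, and Runx3 with thrombin (1.01, adjusted p = 1.9e-06). The collagenase gene Mmp13 was called lower in all 3 comparisons (-0.90, -0.83 and -1.73).

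Among 12 tested cartilage regulators, Fgfr3, a receptor that restrains chondrocyte growth, and Gdf5, a joint ligand, had the same order of groups as Tnmd and Cilp. Fgfr3 stood at 3.70, 2.12 and 10.8 FPKM in control, thrombin and PD03, with a log2 fold change of -0.79 with thrombin (SE 0.11, adjusted p = 2.8e-07) and 2.45 with PD03 against thrombin (SE 0.10, adjusted p = 4.9e-24). Gdf5 had 12 to 20 counts per control library, 2 to 14 with thrombin, which overlapped, and 70 to 100 with PD03 (log2 fold change 3.74 against thrombin, SE 0.34, adjusted p = 1.7e-12). The receptor Bmpr1b moved the other way (1.31 with thrombin and -1.63 with PD03 against thrombin), and Foxc2 rose with thrombin (0.64, adjusted p = 3.6e-05), while Trps1 fell with PD03 against thrombin (-0.67, adjusted p = 5.4e-07).

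Of 18 tested tendon matrix genes, 3 fell and none rose with thrombin, and 8 rose and none fell with PD03 against thrombin. Abi3bp, a matrix protein, measured 15.8, 6.59 and 57.2 FPKM in control, thrombin and PD03, with log2 fold changes of -1.24 (SE 0.06, adjusted p = 1.7e-21) with thrombin and 3.21 (SE 0.05, adjusted p = 2.2e-37) with PD03 against thrombin. Col14a1, a collagen of the fibril surface, had log2 fold changes of -1.26 with thrombin (adjusted p = 1.5e-28) and 1.59 with PD03 against thrombin (adjusted p = 1.0e-32), and Prelp -0.68 and 0.80. Col12a1 (1.16, adjusted p = 3.4e-29) and Fmod, the fibril-binding fibromodulin (1.08, SE 0.05, adjusted p = 3.8e-22), rose with PD03 with no call for thrombin. Tnc, a tenascin of tendon and of stressed matrix, was abundant (1429, 1826 and 1780 FPKM) and not called in any comparison.

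Of 16 tested tendon regulators, 5 rose and 5 fell with PD03 against thrombin. Tgfb2 and Tgfb3, ligands that maintain tendon progenitors, rose, Tgfb2 by a log2 fold change of 1.48 (SE 0.09, adjusted p = 1.3e-18) and Tgfb3 by 2.28, and Klf2 rose by 2.74 (adjusted p = 1.3e-23). Egr1 and Egr2, zinc finger factors that raise tendon collagen genes and are also early targets of Erk1/2, fell by 3.70 (SE 0.12, adjusted p = 1.7e-27) and 2.66 (adjusted p = 1.5e-14) on the log2 scale. Etv4 and Etv5, both also counted above among the 12 genes downstream of MEK, fell by 2.62 (adjusted p = 1.3e-18) and 1.18 (adjusted p = 1.1e-12). Egr1 thus stood at 112 and 79.5 FPKM in control and thrombin libraries and 5.73 in PD03 libraries, where Tnmd was highest. With thrombin, Gdf6 rose (1.18, SE 0.32, adjusted p = 0.0040), and Egr2 (-1.37), Tgfb3 (-0.86) and Klf4 (-0.79) were among the 4 that fell.

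For comparison, 13 of the 19 osteoblast genes were tested. With thrombin, 2 were called higher (Spp1 and Msx2) and 2 lower, namely Alpl (log2 fold change -2.24, SE 0.42, adjusted p = 4.0e-05) and Dlx3 (-1.65, adjusted p = 0.0031). With PD03 against thrombin, 4 were called higher, among them Alpl (3.14, SE 0.38, adjusted p = 2.8e-09), Col1a2 (0.755, adjusted p = 4.0e-26) and Col1a1 (0.751, adjusted p = 1.9e-24). The 3 called lower were Spp1 (-1.80, adjusted p = 7.3e-31), Msx2 (-0.92, adjusted p = 3.3e-18) and Runx2 (-0.67, SE 0.07, adjusted p = 2.5e-11). Sp7 was called in no comparison. With PD03 against control, 2 were called higher and 1 lower, and those higher numbered 0 without Control replicate 1, 1 without Control replicate 2, 1 without PD03 replicate 3 and 1 with libraries scaled by their totals.

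**Figure D4:**
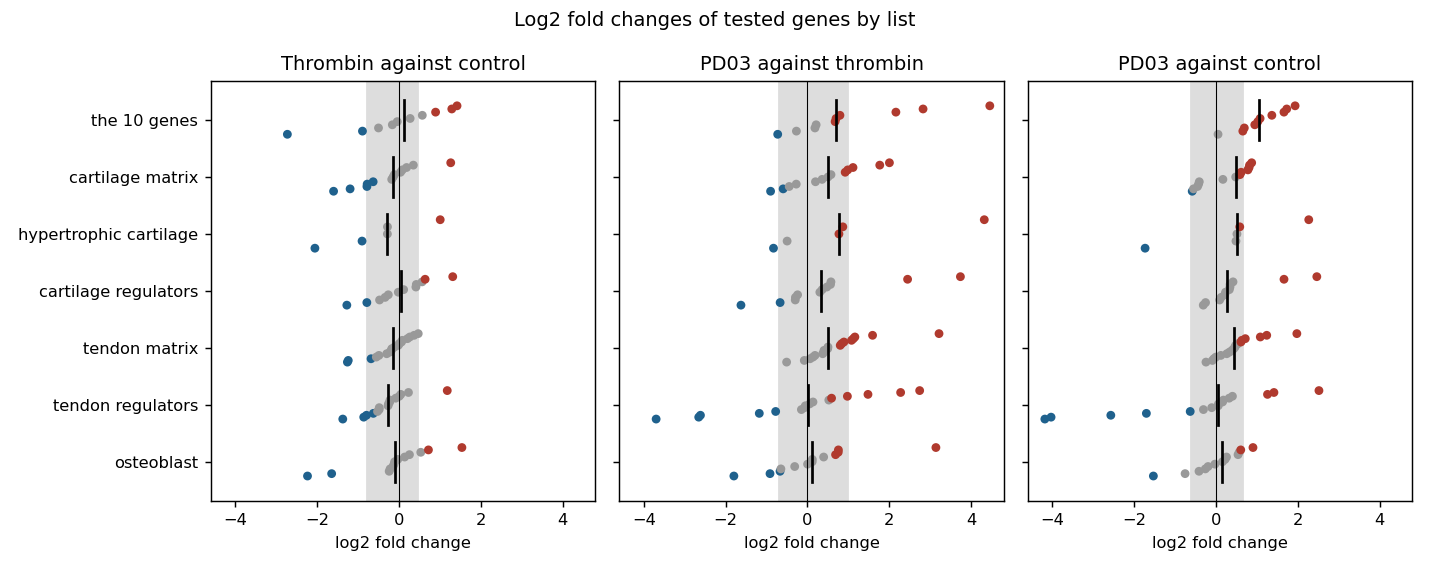
Log2 fold changes of the tested genes of each list (points, coloured red when called higher, blue when called lower and grey when not called) with the list median (bar), and a grey band for the central 90% of all tested genes. With PD03 against control, 9 of the 10 genes are called higher, and the tendon regulators spread from -4.18 to 2.52.

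Genes with the most similar course were sought for each of the 10 among 11922 tested genes with a symbol and at least 1 CPM, by the root mean square distance of centred log2 CPM over the 9 libraries. Nearest to Tnmd were Cpxm2 (distance 0.141, Pearson's r 0.995) and Ntrk2, a neurotrophin receptor (0.157, r 0.993), and nearest to Cilp were Cdh8 (0.281) and Cpz (0.401). Comp was nearest to Scin (0.171) and Otulinl (0.179), and Thbs4 to Tubb3 (0.0879) and Cnn1 (0.129), the last a smooth muscle gene. Scx was nearest to Arl4c (0.162) and Grem1, an antagonist of Bmp ligands (0.166), and Sox9 to Hhipl1 (0.0488) and Tgfbi (0.0877). Mkx was nearest to Pfkfb3 (0.111) and Gpr137b (0.114), and Sox6 to Mdga1 (0.165) and Ppp1r14a (0.182). Sox5 was nearest to Col20a1 (0.159) and Kbtbd7 (0.203), and Acan to LOC686087 (0.286). With only 9 libraries in 3 groups, these distances are a description, and the libraries of a group share its mean.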

How the data were processed

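Messenger RNA of 9 libraries was analysed. The authors deposited raw counts per gene and FPKM values. The study's methods name fastp, HISAT2, Rnor_6.0 and featureCounts, whereas the submitters' processing notes name HISAT2, HTSeq 0.13.5 and mRatBN7.2. The annotation release and the strand setting of the counting are not given in the sources read. Of 19085 genes, 2048 carry no symbol. The deposited FPKM equal counts divided by gene length and library total, and were used for levels between genes and as an alternative. Genes passing filterByExpr (minimum count 10) were scaled by TMM and tested by edgeR's quasi-likelihood method in 1 fit (edgeR 4.0.16 in R 4.3.3), and the procedure was tested on simulated data. DESeq2 1.42.0 and limma 3.58.1 served as alternatives, limma both with voom on the counts and on FPKM. Libraries of a group differed beyond counting noise, with a chi-square of 1.82 to 3.99 for each degree of freedom. Pairs that held replicate 1 had 3.02 to 3.99, and pairs of replicates 2 and 3 had 1.82 to 2.13. The 10 genes, the lists and the tests were chosen with earlier results of these data known. Genes named from a list were taken from its up to 3 largest called rises and falls per comparison. These needed a mean of 1 CPM or more in one group and separate libraries, and not every gene that met this rule is named. Defining markers and relatives of the 10 genes were named as well. Others named were chosen after their values were seen. Alternatives covered scaling, filter, test, fold threshold, FPKM with 1 or 0.1 added, a replicate block, 2-group fits and each library left out. For Acan, 1 of the genes with a similar course is not reported here.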

Additional observations from a re-analysis of the deposited data

How the results depend on the processing

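Across 24 alternatives, the 30 log2 fold changes of the 10 genes gave 656 values on the same side of the threshold. A further 49 lost a call, 6 gained one and 0 calls were reversed. At a mean count of at least 50, Sox5, Sox6 and Acan were filtered out and gave no value. Scaling by library totals left Sox6 (0.58) in PD03 against thrombin and Scx (0.57), Mkx (0.54) and Acan (0.91) in PD03 against control without a call. In thrombin against control, then PD03 against thrombin, then PD03 against control, all called genes numbered 460, 1051 and 499 with glmTreat, 3808, 6608 and 5289 with no fold threshold, 505, 935 and 519 with a fold threshold of 1 on the log2 scale, and 543, 1254 and 676 on FPKM with 1 added. Of the 10 genes, glmTreat called 3 higher and 0 lower in PD03 against thrombin and 5 higher in PD03 against control. A threshold of 1 called 1 lower with thrombin and 3 higher and 0 lower in PD03 against thrombin, and FPKM with 1 added called 3 higher there and 5 higher in PD03 against control. Other cartilage genes called with thrombin, in PD03 against thrombin and in PD03 against control numbered 20, 24 and 24 with no fold threshold and 7, 7 and 4 with a threshold of 1. With thrombin and in PD03 against control they numbered 5 and 5 with glmTreat and 5 and 6 on FPKM, and a mean count of at least 50 left 7 in the latter. Other tendon genes numbered 24, 28 and 28 with no fold threshold, and with thrombin 5 with glmTreat and 4 with a threshold of 1. Osteoblast genes called with thrombin numbered 2 at a mean count of at least 50, 9 with no fold threshold and 2 on FPKM. In PD03 against thrombin they numbered 2 with a threshold of 1, and in PD03 against control 1 at a mean count of at least 50, 0 with glmTreat, 8 with no fold threshold, 1 with a threshold of 1, 0 on FPKM, and 1 to 4 with each library left out. The stricter and looser thresholds change these counts by their construction, and for the other settings the cause was not tested. The 9 correlations of same-numbered deviations ran from -0.0456 to 0.0523, and with the replicate block 1067, 2103 and 1187 genes were called. Deviations from means of 3 libraries cannot settle whether same-numbered libraries were paired. Genes with few counts, such as Acan and Sox5, are limited by depth.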
